A study of Caenorhabditis elegans with 2 samples.

Results

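Autosomal intronic summits are ChIP-seq peaks for NHR-20, a nuclear hormone receptor, whose highest point lies inside a gene, between its exons and away from any promoter. A summit of the authors' thresholded ce11 list was kept when it lay on chromosomes I to V, inside a protein-coding gene and in no exon of that gene. Summits in a promoter window, which reached from 1000 bp before a protein-coding transcript start to 300 bp after it, were left out. The rule kept 722 of 6423 summits, 11.2% (95% interval 10.5 to 12, exact binomial, counting error only), in 535 introns of 477 genes. Within that list position alone chose them, but the list itself was thresholded on the same replicates, so signal and replicate matches are given as descriptions. The label fits the annotation with small exceptions: 3 of the 722 also lay in an exon of another, overlapping gene, and 2 lay in an intron that only a non-coding transcript has.

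The study mapped chromatin bound by NHR-20 in whole hermaphrodite worms of strain OP515, genotype unc-119(tm4063) III with the transgene insertion wgIs515. The transgene adds GFP and FLAG to the C-terminus of the receptor, and an antibody against GFP was used for the precipitation. L1 larvae were collected 6 hours after synchronization, which was done by starvation of hatchlings after bleaching. There was 1 group of 2 biological replicates, all worms carry the transgene, and a precipitation from worms without the tag was not analysed here, so no summit here has a measured background without the tag. The promoter that drives the transgene is not given in the labels, and signal from all tissues of the larva is pooled.

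Nuclear hormone receptors are transcription factors that bind short DNA sites through paired zinc fingers, and nematodes have an expanded family of them. Worm introns are mostly very short, but long introns, first introns above all, are known to carry enhancers and internal promoters. Worm introns also house genes for small non-coding RNAs, among them transfer RNAs (tRNAs), which RNA polymerase III transcribes from promoter boxes inside the gene, and small nucleolar RNAs (snoRNAs), which guide the modification of other RNAs. Some of these genes are known to have a promoter of their own, independent of the host gene.

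Sequence at 8 intronic summits is shown first, because these loci carry the main patterns in strength and position. The first set is the 4 strongest intronic summits of the list, each with 50 bases on either side of the summit on the plus strand of RefSeq's WBcel235 assembly, which is ce11. They are chrII:9603576-9603676 in the first intron of nhr-19, chrIV:2602121-2602221 in intron 2 of epg-9, chrIII:12612607-12612707 in intron 4 of Y111B2A.12 and chrIII:1925314-1925414 in intron 14 of pqn-41. Capitals mark GAGAGA or its complement and the word CTGCGTCTC or its complement, which are counted over the whole set further on.
nhr-19: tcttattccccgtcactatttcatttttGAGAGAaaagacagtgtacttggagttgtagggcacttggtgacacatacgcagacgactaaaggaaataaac
epg-9: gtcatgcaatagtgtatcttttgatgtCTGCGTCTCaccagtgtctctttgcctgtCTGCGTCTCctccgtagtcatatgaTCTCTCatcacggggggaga
Y111B2A.12: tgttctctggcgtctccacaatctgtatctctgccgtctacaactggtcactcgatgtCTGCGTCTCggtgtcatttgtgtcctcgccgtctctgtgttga
pqn-41: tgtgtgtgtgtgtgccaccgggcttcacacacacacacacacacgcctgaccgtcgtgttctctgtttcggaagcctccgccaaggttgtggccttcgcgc

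The second set shows intronic non-coding RNA genes with a summit just before them, 90 bases upstream in lower case and the first 30 bases of the annotated gene in capitals. All 4 genes lie on the plus strand. They are the snoRNA genes C08D8.3 (chrV:8349018-8349137) and ZK994.7 (chrV:8500489-8500608), the tRNA gene K08E7.t1 in pgp-1 (chrIV:12594650-12594769), a host shown as a tRNA example after its values were seen, and the small nuclear RNA (snRNA) gene W05B2.8 (chrIII:10989589-10989708). The summits lay 35, 55, 34 and 33 bp upstream of these starts in turn, within the lower-case stretch.
C08D8.3: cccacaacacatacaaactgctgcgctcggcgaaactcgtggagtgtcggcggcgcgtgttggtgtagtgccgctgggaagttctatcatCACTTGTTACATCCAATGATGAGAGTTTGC
ZK994.7: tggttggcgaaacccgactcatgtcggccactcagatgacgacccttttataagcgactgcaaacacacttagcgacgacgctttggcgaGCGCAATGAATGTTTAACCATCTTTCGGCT
K08E7.t1: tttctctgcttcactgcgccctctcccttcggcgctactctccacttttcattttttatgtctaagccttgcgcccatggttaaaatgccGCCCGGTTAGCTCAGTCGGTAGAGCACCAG
W05B2.8: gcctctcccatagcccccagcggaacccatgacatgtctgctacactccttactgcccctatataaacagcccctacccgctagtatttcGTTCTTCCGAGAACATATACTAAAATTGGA

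The signal is the value that the authors' peak caller gave each region of the pooled list, and it ranks regions within that list. Autosomal intronic summits had a median signal of 151, with quartiles of 108 and 265 and a range of 86.02 to 2554. The median was 184 at autosomal promoter summits, 157 at autosomal summits outside protein-coding genes and promoters, and 168 at X intronic summits. By rank, 22.02% of the intronic set fell in the strongest 25% of the whole list and 30.7% in the weakest 25%. The set held 5 of the 25 strongest regions of the list and 11 of the 100 strongest. The latter count is near the 11.2% that the set makes up of the whole list. At the bottom of the list, the last member was in nhr-142 with a signal of 86.02, and the first intronic candidate under the threshold, in lin-17, had 85.8.

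Most intronic summits were seen in each replicate, and the weak ones less often. A candidate summit within 200 bp among the 6423 strongest regions of a replicate was present for 91.8% (89.6 to 93.7) of the members in replicate 1 and 84.6% (81.8 to 87.2) in replicate 2. In both replicates it was present for 77.3% (74.1 to 80.3) of the intronic set, against 83.0% (81.6 to 84.3) of autosomal promoter summits. The share was 77.8% at autosomal summits outside protein-coding genes and promoters, 81.0% at X intronic summits and 80.5% over the whole list. With the members in 4 groups by signal, 100% of the strongest, 97.8% of the next, 80.0% of the third and 31.5% of the weakest were matched in both. Of the others, 105 were matched in replicate 1 alone, 53 in replicate 2 alone and 6 in neither. Among all 30000 candidates per replicate, 98.1% had a counterpart in both. Over those 708 members the replicate signals correlated at 0.76 by rank (Spearman) and at 0.82 between log2 values (Pearson), given as a description, since the members were drawn from the pool of these libraries. Replicate signals were lower in replicate 2, with medians of 55.8 in replicate 2 and 104.4 in replicate 1, and the sequencing depth behind them is unknown.

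**Figure D1:**
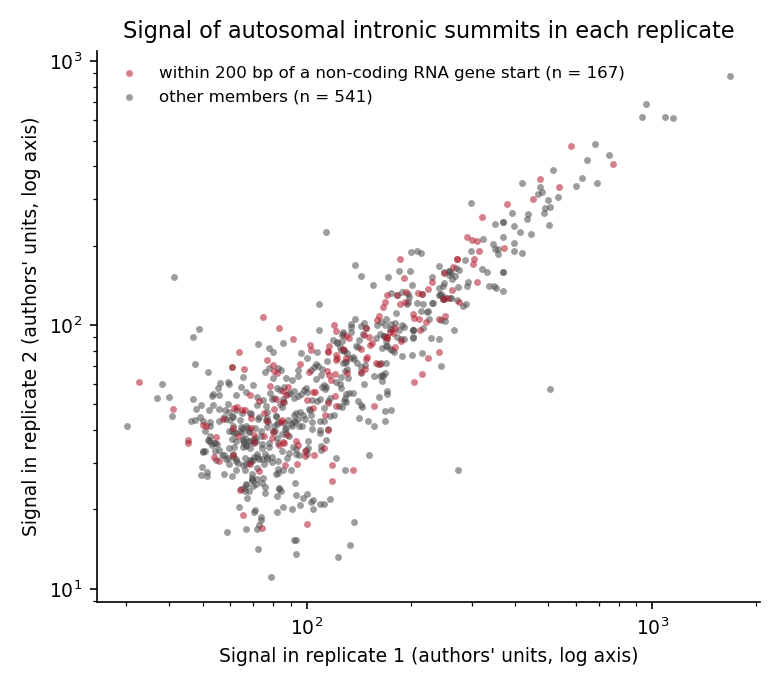
Signal in replicate 1 (x, log axis) against replicate 2 (y, log axis), in the authors' units, for the 708 autosomal intronic summits with a candidate in both replicates. Each point is a summit, red within 200 bp of a non-coding RNA gene start (n = 167) and grey elsewhere (n = 541); strong summits lie on a narrow diagonal and weak ones scatter widely.

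The strongest intronic summits lay in genes of varied function. The first intron of nhr-19 (WBGene00003618, chromosome II, 9598180 to 9605526, minus strand), which encodes another nuclear hormone receptor, held the strongest one. Its signal was 2554 in the pooled list, 1676 in replicate 1 and 879.6 in replicate 2, rank 2 in each list. It lay 1624 bp downstream of the nearest nhr-19 start. The same 4213 bp intron held 4 more summits, with signals of 729.9, 542, 186 and 185, so 1 locus carried both the strongest summit and some of average strength. In epg-9, an autophagy gene, the summit in intron 2 had a signal of 1745 (1145 in replicate 1, 607 in replicate 2), and in Y111B2A.12 the summit in intron 4 reached 1699 (1087 and 616). Both ranked among the 25 strongest in each replicate.

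Intron 14 of pqn-41, which encodes a protein rich in glutamine and asparagine, held 5 summits. Their signals were 1554, 116, 1048, 1634 and 1189 in the order of the gene. Replicate 1 gave 933, 84.8, 692, 958.5 and 748, and replicate 2 gave 613, 33.2, 344, 687 and 441 for the same summits. The weak summit of the run was therefore the weak one in both replicates. The 4 strong ones had a GC content of 55 to 56.5% in the surrounding 200 bp, and the weak one 37.5%. No summit lay in a promoter window of pqn-41.

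The remaining members of the 20 strongest had pooled signals between 806 and 1158. They lay in Y43F8B.2 (1158), W06H8.6 (1152), T28F4.1 (1084), the receptor gene nhr-31 (1059), zfp-1 (959), whose product is a chromatin protein related to AF10, and gei-4 (942). They were followed by pkg-2 (901), a cyclic GMP-dependent protein kinase, F58G1.7 (876), psd-1 (829), which encodes phosphatidylserine decarboxylase, and dhc-4 (825), a dynein heavy chain. The last were nhr-46 (813), mnk-1 (808), a kinase of the MAP kinase-interacting type, and nhr-34 (806). Receptor genes hosted 4 of the 20 strongest intronic summits and 30 of all 722, and pqn-41 alone also held 4 of the 20. Each of the 20 was matched among the 300 strongest regions of both replicates, and the 50 bases around each occurred once in the genome.

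Intronic summits were concentrated in long introns. The intron around a summit had a median length of 3162 bp over the 722 members, so an intron with several summits counts several times. With each intron counted once, the median was 70 bp over 90358 autosomal introns and 96 bp over those outside promoter windows at least in part. To allow for the room that long introns offer, summits were counted per 100 kb of reachable sequence, meaning intron bases of protein-coding genes outside promoter windows, 22274721 bp in all. The density was 0.89 per 100 kb in introns under 200 bp, 2.01 from 200 bp to under 1000 bp, 3.17 from 1000 bp to under 5000 bp and 9.002 from 5000 bp up, against 3.24 over all lengths. Of the 513 autosomal introns of 5000 bp and over with reachable bases, 133 held a summit, 25.9%. Over all 65229 introns with reachable bases the share was 0.82%.

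**Figure D2:**
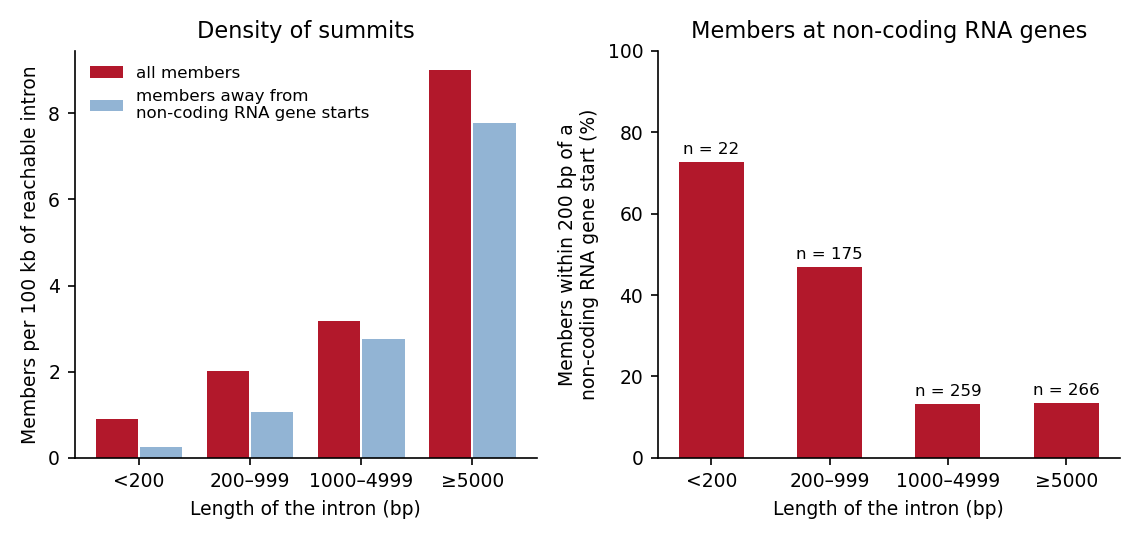
Left, autosomal intronic summits per 100 kb of reachable intron sequence (y) by the length of the intron in bp (x), for all members (red) and for those away from non-coding RNA gene starts (blue). Right, the share of members within 200 bp of a non-coding RNA gene start (y, percent) in the same classes, with the number of members above each bar; density climbs with length to 9.002, and the share is 72.7% in the shortest class and 13.5% in the longest.

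First introns held more summits per base than later introns. Of the members, 36.3% (32.8 to 39.9) lay in a first intron, counted in the longest coding transcript with an intron there, while first introns made up 19.8% of the reachable bases. The density was 5.94 per 100 kb in first introns and 2.58 in later ones. The first introns around members are long, with a median of 5052 bp counted per member. The count was therefore repeated among introns of 1000 bp and over, where the densities were 7.79 and 3.58. First introns around members were still longer there, with a median of 5917 bp against 4309 bp in later ones. Length was thus not fully allowed for. The second intron held 102 members, the third 59 and the fourth 78, and 53 lay in the last intron of the transcript. The median signal was 150.1 in first introns and 150.7 in later ones.

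The rule left out summits close to a start, so distances are given as a description of what remained. The distance to the nearest protein-coding transcript start had a median of 1688 bp, with quartiles of 1103 and 2747 bp and a largest value of 20210 bp. For 442 members the nearest start was an upstream start of the host gene, for 182 it was an internal start of the host further downstream, and for 98 it belonged to another gene. An internal host start lay further downstream of 386 members, and within 2 kb of 128. The members nearest the window's edges were in tba-7, a tubulin gene, 304 bp downstream of its start (signal 225), and in T27E4.7 at 314 bp (157). Upstream of an internal start they were in elt-1, a GATA factor gene, at 1032 bp (107), and in Y48C3A.5 at 1040 bp (101). Just inside the windows, and so not members, were intronic summits in nhr-10 at 299 bp (85.99) and dos-1 at 297 bp (163) downstream. Upstream, those in Y71G12B.31 at 984 bp (119) and nhr-62 at 981 bp (355) were left out in the same way.

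The longest introns with a summit belonged to kin-1, the catalytic subunit of protein kinase A, lin-1, an ETS factor, Y48C3A.5, hmr-1, a cadherin, and T28B11.1. The strongest summit in the 21230 bp intron of kin-1 had a signal of 99.1 with no candidate within 200 bp in replicate 2, and that in the 20948 bp intron of lin-1 had 282 (185 in replicate 1, 95.5 in replicate 2). Y48C3A.5 reached 621 in an intron of 19927 bp, hmr-1 reached 120 in one of 18310 bp, and T28B11.1 reached 758 in one of 17091 bp. A long intron therefore did not by itself go with a strong summit, and the 4 length classes had similar median signals of 134, 173, 149.9 and 146 from shortest to longest.

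Many members came in groups within one gene. In all, 288 members (39.9%) shared their intron with another member, in 101 introns, and 117 of the 477 hosts had more than 1. In 18 hosts there were 5 or more summits, 111 members together. The most were in ppfr-1, a regulatory subunit of protein phosphatase 4, with 10 summits and signals of 101 to 589. T28B11.1 followed with 9 (90.9 to 758), then daf-5, a Sno/Ski-type corepressor of the dauer pathway, with 8 (126 to 613). The forkhead gene fkh-7 had 7 (96.6 to 794), as did daf-16, the FOXO factor downstream of insulin signalling (113 to 330). There were 6 each in pkg-2 (105 to 901), aakg-1, a gamma subunit of AMP-activated kinase (114 to 592), spsb-1 (86.1 to 426), rpoa-1, a subunit of RNA polymerase I (91.2 to 418), and cwf-19L2 (96.9 to 231).

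In daf-5, 7 of the 8 summits lay in a first intron of 14446 bp, from 1658 to 11887 bp after the first start. Their signals in that order were 535, 369, 126, 146, 472, 317 and 613. The last pair lay 199 bp apart and was matched to the same candidate in each replicate (370.1 in replicate 1 and 245 in replicate 2), so those summits are not separate observations there. In daf-16, 6 of the 7 summits lay in a 12401 bp intron with signals of 113 to 156, and the strongest (330, with 172 in replicate 1 and 153 in replicate 2) lay in intron 7, 1641 bp upstream of an internal start. In pkg-2, 5 of the 6 lay in intron 4 with signals of 599, 901, 264, 542 and 432 along the gene. Strength thus varied widely within a gene. In daf-16 and pkg-2 the strongest summit was also the strongest in both replicates, which together make up the pooled list. In daf-5 the strongest summit tied with its neighbour in each replicate, since they share a candidate. In all, 148 members had another within 1000 bp and 8 had one within 200 bp.

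**Figure D3:**
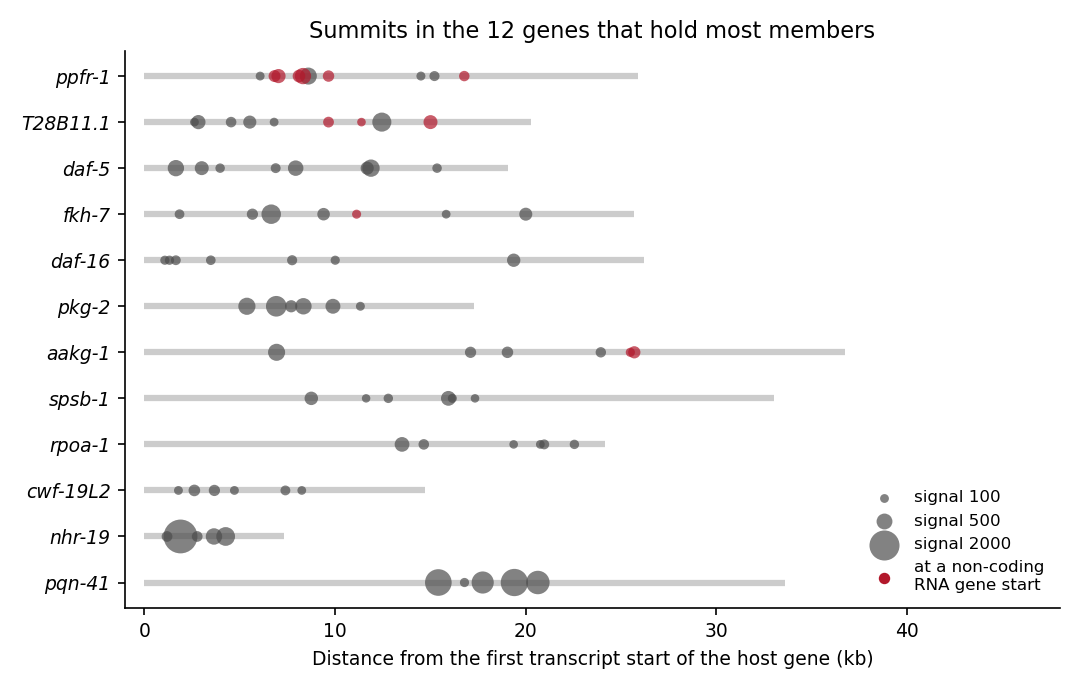
Positions of intronic summits along the 12 genes that hold most of them, as distance from the first transcript start of the host in kb (x), 1 gene per row with the grey bar showing its length. Circle area grows with the pooled signal, and red marks summits within 200 bp of a non-coding RNA gene start; ppfr-1 has 10 summits and nhr-19 holds the strongest at 2554.

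Hosts of intronic summits often also had a summit in their promoter. Of the 477 hosts, 218 (45.7%) had a promoter summit in the same list, against 18.8% of the 13947 other autosomal genes with reachable bases. Among genes with 5000 or more reachable bases the shares were 46.2% of 197 hosts and 19.8% of 834 other genes, so the gap was as large among long genes. The share was 51.5% among hosts of a summit away from non-coding RNA gene starts, and 28.0% among hosts whose summits all lay at such starts.

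A sizeable share of the intronic summits lay at the start of a non-coding RNA gene. Of the members, 168 (23.3%, 20.2 to 26.5) were within 200 bp of such a start, where 6.21% of the reachable bases lie. The density was 12.1 per 100 kb within those windows and 2.65 outside them. Among all thresholded summits 16.7% lay as close to such a start. The share was 11.5% at autosomal promoter summits, 18.8% at autosomal summits outside protein-coding genes and promoters, and 30.1% at X intronic summits. The trait was thus not particular to autosomal introns. An intron that holds a whole non-coding RNA gene contained 345 members (47.8%), against 16% of the reachable bases. Of these members, 154 lay in introns of 5000 bp and over, the length class with the highest density of summits. The comparison was not matched for intron length, so the part of length in this gap was not tested. The nearest gene was on the strand of the host for 90 of the 168 members and on the opposite strand for 78. Among members in introns under 1000 bp, those at a non-coding RNA start (n = 98) had a median signal of 200.4 and were matched in both replicates in 90.8% of cases, and the others (n = 99) had 130 and 70.7%. In longer introns the medians were 165 (n = 70) and 145 (n = 455).

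The position of the summit differed with the class of the RNA gene. At tRNA genes (55 members) the median position was 16 bp upstream of the gene start, with quartiles of 27.5 and 4 bp upstream, and 43 summits lay upstream. At snoRNA genes (30 members) it was 53 bp upstream, with quartiles of 61.75 and 44.25 bp, and 28 lay upstream. At snRNA genes (11 members) it was 21 bp upstream. The snoRNA positions thus lay further from the gene than most of the tRNA positions, since the middle ranges of the classes do not overlap. Genes of the broad class ncRNA (59 members) were spread out, with a median of 5 bp downstream and quartiles of 51 bp upstream and 69 bp downstream. The 9 members nearest a piRNA gene, a template for the germline's Piwi-bound RNAs, were spread from 161 bp upstream to 165 bp downstream.

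**Figure D4:**
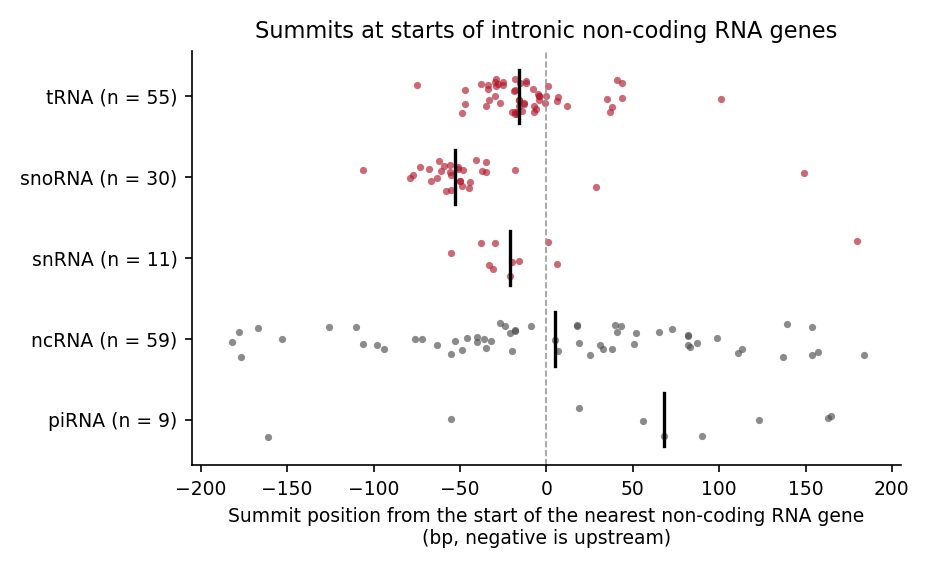
Position of the summit relative to the start of the nearest non-coding RNA gene in bp (x, negative is upstream), 1 point per autosomal intronic summit, for the 5 classes of RNA gene with 9 or more members, with points spread vertically for display. Black bars are medians; tRNA summits gather 16 bp and snoRNA summits 53 bp upstream, while the ncRNA and piRNA classes are spread out.

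Counted by gene, a summit of the set lay within 200 bp of the start of 57 of 147 intronic tRNA genes (38.8%), 30 snoRNA genes (26.8% of those in introns) and 11 of 48 snRNA genes (22.9%). The share was 2 of 57 for miRNA genes (3.51%), 122 of 1621 for genes of the class ncRNA (7.53%) and 12 of 4426 for piRNA genes (0.271%). Neighbouring RNA genes can share a summit, so genes outnumber members in some classes. Autosomal genes of the same classes elsewhere, with any thresholded summit within the distance, gave 42.9% of tRNA, 32.3% of snoRNA, 24.4% of snRNA, 6.92% of miRNA, 13.7% of ncRNA and 0.705% of piRNA genes. Of 4 intronic lincRNA genes 2 had a summit of the set (50%), against 7.24% of lincRNA genes elsewhere. tRNA, snoRNA and snRNA genes thus had higher shares than miRNA, ncRNA and piRNA genes both inside and outside introns, and 4 lincRNA genes are too few to place. The snoRNA members had the highest median signal, 298, against 178 at tRNA and 176 at snRNA genes.

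The strongest summits at RNA genes were spread over host types. In W06H8.6 the summit (1152) lay 154 bp downstream of the start of the short ncRNA gene W06H8.16, past the end of that gene. In nhr-31 (1059, with 582 in replicate 1 and 475 in replicate 2) it lay 7 bp downstream of the start of C26B2.12. In F58G1.7 (876) it lay 1 bp downstream of the start of sup-6, which the annotation lists as an snRNA gene, and in dhc-4 (825) 33 bp upstream of W05B2.8. In skn-1, the Nrf-type factor of the oxidative stress response, the summit (747) lay 40 bp upstream of the ncRNA gene T19E7.26. The snoRNA genes C08D8.3 in C08D8.1 (664), ZK994.7 in pxn-1, a peroxidasin (579), and F01D5.12 in F01D5.10 (524) had theirs 35, 55 and 49 bp upstream. In Y37A1A.2 (564) the nearest RNA start was that of a piRNA gene 68 bp away, and the summit lay past the end of that gene. In ppfr-1 (535) the ncRNA gene F16A11.13 began 55 bp downstream of the summit.

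Some summits fell at RNA genes with a known role. Those named in this paragraph, apart from the ones in glr-2, were chosen after their values were seen. In ints-8 a summit (513, with 301 in replicate 1 and 210 in replicate 2) lay 24 bp upstream of rpr-1, the RNA of ribonuclease P, which trims the 5′ end of tRNAs. Introns 14, 12 and 10 of glr-2, a glutamate receptor gene of the AMPA type, held summits at sls-2.5, sls-2.16 and sls-2.18, genes of the spliced leader RNA SL2, with signals of 193, 148 and 143. The first 2 lay 21 and 38 bp upstream of the RNA start and the third 6 bp downstream. The summits at miRNA genes were 32 bp upstream of mir-2214 (223) and 167 bp upstream of mir-87 (119). Of the 168 summits, 163 were at RNA genes wholly inside the intron.

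Summits at RNA genes and other summits lay in introns of different length. In introns under 200 bp, 16 of 22 members lay at a non-coding RNA start (72.7%, 49.8 to 89.3), and from 200 bp to under 1000 bp 82 of 175 did (46.9%, 39.3 to 54.5). From 1000 bp to under 5000 bp the share was 13.1%, and in longer introns 13.5%. tRNA genes accounted for 49 and snoRNA genes for 26 of the 98 such members in introns under 1000 bp. Without the members at RNA genes the density still climbed with length, from 0.24 per 100 kb in the shortest class through 1.07 and 2.76 to 7.78 in the longest.

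Host genes were counted in lists drawn up with earlier results of these data known. Receptor genes had more summits per base than all genes together. So did bHLH genes and the forkhead group, but from few host genes. Homeobox genes had none, with a limit that takes in the share of all genes. Of all 14424 autosomal protein-coding genes with reachable bases 3.31% hosted an intronic summit, or 2.77% of all 17242, and the density was 3.24 per 100 kb. Among 243 nuclear receptor genes 15 did (6.17%), with 30 summits, 10.96 per 100 kb and a median signal of 198. After nhr-19 and nhr-31 they were led by nhr-46, with 4 summits, and nhr-34, with 4. The list also took in nhr-23, a regulator of molting (signal 212), and nhr-85 (209.8). Among 31 bHLH genes 3 did (9.68%, 2.04 to 25.8), with 6 summits and 11.3 per 100 kb. They were headed by hlh-30, the TFEB factor of autophagy and lysosomes (4 summits, strongest 404), and hlh-11 (149.9). Forkhead, GATA, SOX and T-box factors had 4 hosts of 36 (11.1%, 3.11 to 26.1) and 16 summits, 15.95 per 100 kb, of which fkh-7 and daf-16 held 14. The intervals of the bHLH and forkhead shares both took in 3.31%. Of 69 homeobox genes 0 hosted a summit, although they offer 172130 reachable bases. A count of 0 there allows a share of up to 4.35% (3 counts of the total), which takes in the 3.31% of all genes.

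Genes for G protein and cyclic nucleotide signalling also lay above the density of all genes, and the insulin and TOR list held too few summits to place. Of 44 genes for G proteins and cyclic nucleotide signalling 8 hosted a summit (18.2%), at 6.72 per 100 kb. They were headed by egl-4, a cyclic GMP-dependent kinase (386, 3 summits), and gpa-1, a G protein alpha subunit (200.5, at an ncRNA gene), and took in pde-4, a cyclic AMP phosphodiesterase, with 4 summits. Of 11 insulin and TOR genes 2 did (18.2%, 2.28 to 51.8), with 4 summits and 5.86 per 100 kb. They were daf-2, the insulin receptor (271, 3 summits in 1 intron), and let-363, the TOR kinase (259). The strongest daf-2 summit lay 23 bp downstream of the start of the annotated lincRNA gene linc-143. Of 47 corepressor and chromatin genes 2 hosted a summit (4.26%, 3.47 per 100 kb), egl-27, related to MTA (633), and set-18 (304). Of 29 RNA-binding and splicing genes 1 did (3.45%, 2.20 per 100 kb), asd-2 (259). The shares of both lists were near the 3.31% of all genes.

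The lists of channel, axon guidance, synaptic and muscle genes had 1.07 to 2.98 summits per 100 kb, against 3.24 over all genes. Each list held only 3 to 7 summits, and the gaps were not tested. A larger share of the genes in each list hosted a summit than the 3.31% of all genes, but each exact interval took in 3.31%. Potassium, calcium and chloride channel genes had 5 hosts of 60 (8.33%) and 1.504 summits per 100 kb, led by the potassium channel genes twk-5 (239) and twk-48 (181), each at a non-coding RNA gene. Away from RNA genes the channel density was 0.60 per 100 kb, against 2.49 over all genes. Ligand-gated channels had 4 hosts of 77 (5.19%) at 2.98 per 100 kb, led by glr-2 and acr-18 (152), and 1 of their 7 summits lay away from RNA genes. Axon guidance, adhesion and matrix genes had 4 of 46 (8.70%, 1.07 per 100 kb), led by unc-33 (209) and the L1-type adhesion gene sax-7 (195). Synaptic genes had 2 of 28 (7.14%, 2.07 per 100 kb), unc-43, the calmodulin kinase II (261), and snt-3 (118), and body wall muscle genes 3 of 27 (11.1%, 2.44 per 100 kb), led by dys-1, dystrophin (133), and lev-11, tropomyosin (121).

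Chemoreceptor, C-type lectin and F-box genes had few or no intronic summits, and ribosomal protein and proteasome genes offered little room. Of 1224 chemoreceptor genes 4 hosted one (0.33%), with srh-2 (386) and srt-52 (178) in front, at 0.50 per 100 kb. A list picked by name alone, the col, dpy, rol, sqt and bli genes, is not limited to collagens. It had 6 hosts of 97 (6.19%, 7.68 per 100 kb) and was led by rol-3 (504) and col-72 (330). Of its 7 summits 4 lay at RNA genes. No summit lay in 226 C-type lectin genes or 216 F-box genes, which allows shares of up to 1.33% and 1.39% by the same limit. Ribosomal protein and proteasome genes also had 0 hosts, of 29 and 22, but with 3541 and 3913 reachable bases a density could not be read from them.

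The DNA around intronic summits was richer in G and C and poorer in masked repeats than introns at large. The GC content of 200 bp around the summit had a median of 43.5% (quartiles 38.5 and 48), 48.5% at non-coding RNA starts and 41.5% elsewhere. It was 39.5% at autosomal promoter summits and 32% in 86827 windows of 200 bp tiled over reachable intron sequence. In the RefSeq assembly, bases marked as repeats or low-complexity sequence filled a median of 14.5% of a summit window and 55.5% of a tiled window. Reads from repeats are hard to place, and the part of mappability in the positions of the summits was not tested. The 50 bases at the summit were found once in the genome for 710 of 722 members. Among the 12 with further copies, 6 were at tRNA genes, where reads from near-identical copies cannot be told apart.

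Short motifs were searched on both strands in the 200 bp around each summit, with tiled intron windows as the background. GAGAGA was present in 46.3% of the members (42.6 to 49.98), in 36.1% of autosomal promoter summits and in 7.98% of tiles. The E-box CACGTG was present in 15.1% (12.6 to 17.9), 9.59% and 2.70%, and the broader CANNTG, which contains it, in 66.8%, 60.4% and 40.8%. The GATA factor site TGATAA was present in 26.2% (23 to 29.5), 21.03% and 15.4%. AGGTCA, the core site of many nuclear receptors, was present in 8.59% (6.65 to 10.9), 7.40% and 4.32%, and the variant AGTTCA in 9.56%, 9.66% and 10.5%. The ACGTG core that CACGTG contains was present in 31.9%, 26.9% and 11.9%, and TGANTCA in 5.68%, 5.69% and 3.97%. TATAAA (12.3%, 18.1% and 22.3%) and TTCNNGAA (6.65%, 10.1% and 14.8%) were less frequent at intronic summits than in tiles. At autosomal summits outside genes and promoters GAGAGA was present in 49.4%, CACGTG in 12.9%, TGATAA in 26.4% and AGGTCA in 9.60%. At X intronic summits the shares were 31.0%, 19.9%, 24.8% and 14.2% in turn. None of these motifs was therefore particular to autosomal introns.

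With the members in 4 groups from strongest to weakest, CACGTG was present in 20.99% (15.3 to 27.7), 16.7%, 13.9% and 8.84% (5.14 to 13.96). The intervals cover counting error only. Summits of the same list are not replicates, so a change of motif share with signal was not tested. AGGTCA was present in 4.42% (1.93 to 8.52), 9.44%, 10.6% and 9.94% (6.00 to 15.3), and TGATAA in 19.3% (13.9 to 25.9), 27.2%, 26.7% and 31.5% (24.8 to 38.8), with overlapping intervals. Because GC content differed so much between summits and tiles, the shares were also read among windows with 38.5 to 48% GC. There GAGAGA was present in 49.3% of 367 members and 14.1% of 18178 tiles, CACGTG in 17.7% and 5.76%, TGATAA in 23.2% and 10.3%, and AGGTCA in 8.99% and 6.41%. The core of the tRNA B box, GTTCGANTC, was present in 13.7% of members at RNA gene starts, 0.18% of other members and 0.54% of tiles. The A box core GGCNNAGTG was present in 12.5%, 2.17% and 1.02%. Both boxes are part of tRNA genes, so their presence follows from the position of the window.

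Among all words of 9 bases, the simple repeats AGAGAGAGA (12.05% of members, 0.838% of tiles) and CTCTCTCTC (11.9% and 0.784%) had the largest gap in share, and CTGCGTCTC came next. This word was singled out after the counts were seen. It was present in 78 members, 10.8% (8.63 to 13.3), and in 1.10% of tiles, and in 11.4% of members and 3.37% of tiles at 38.5 to 48% GC. The strongest of the 4 signal groups had it in 16.6% (11.5 to 22.8), and the others in 8.33%, 8.89% and 9.39%. It was present in 12.6% of autosomal promoter summits and 12.7% of autosomal summits outside genes and promoters, but in 3.54% (1.54 to 6.86) of 226 X intronic summits. Away from RNA genes 12.5% of the members had it, and 5.36% of those at RNA gene starts. It is printed in capitals in the epg-9 and Y111B2A.12 sequences above and lay within 100 bp of 2 of the pqn-41 summits.

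**Figure D5:**
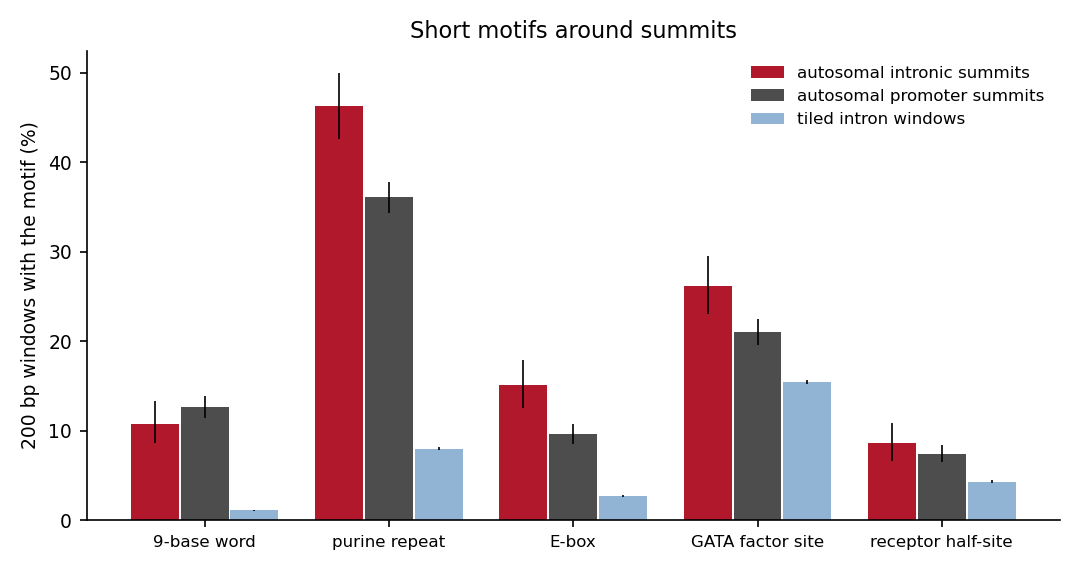
Share of 200 bp windows with each motif (y, percent, bars from 0) around autosomal intronic summits (red), autosomal promoter summits (grey) and in tiled intron windows (blue); lines are exact 95% binomial intervals. From left, the motifs are the 9-base word, the purine repeat, the E-box, the GATA factor site and the receptor core site, and each is more frequent at intronic summits than in tiles, with 46.3% against 7.98% for the purine repeat.

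Members were found on each autosome, with 139 on I, 152 on II, 152 on III, 142 on IV and 137 on V. The density per 100 kb of reachable intron was highest on II at 4.07, with 3.42 on III, 3.16 on IV, 2.94 on V and 2.82 on I. The central 50% of the chromosomes held 64.5% of the members and 41.7% of the reachable bases. Chromosome V had the largest central share of members, 76.6%, against 42.7% of its reachable bases.

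The largest differences in rank between the replicates came from candidates shared with a neighbour. The nhr-46 summit at position 5754453 on chromosome IV was matched to rank 200 in replicate 1 and rank 3367 in replicate 2, and the replicate 1 candidate also matches the stronger nhr-46 summit 203 bp away. The T28B11.1 summit at 10729791 on chromosome V had rank 8553 in replicate 1 and rank 910 in replicate 2, where the candidate also matches a stronger summit 206 bp away. The D2023.3 summit at 11803798 on chromosome V had rank 820 in replicate 1 and rank 7156 in replicate 2, and its replicate 1 candidate, with a signal of 275, also matches a stronger summit 205 bp away. In these 3 cases the pair of values does not compare the same peak.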

How the data were processed

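NHR-20 ChIP-seq regions of whole L1 larvae were analysed in the ce11 lists that the authors deposited: 1 thresholded list of the pooled replicates with 6423 summits, and 30000 candidate regions per replicate. The signal is the authors' own value per region, and the deposited −log10 q-value is 4.18 for all thresholded regions, so signal ranked them. The sources used here give no aligner, peak caller or threshold. The ce10 lists were not used, and the sequencing depth is unknown.

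Gene models were those of Ensembl release 115 (WBcel235, the same assembly as ce11), and symbols and sequence came from RefSeq, which matched all 477 hosts. Introns were numbered in the longest coding transcript of the innermost host. Shares carry exact Clopper-Pearson 95% intervals for counting error, and the limit beside a count of 0 is 3 counts of the total. With 1 group no test between groups was possible, and no p-value was computed. The membership rule was checked against a plain search of the transcripts at simulated positions. Values were computed with Python 3.11.15, NumPy 2.4.6, pandas 2.3.3 and SciPy 1.17.1.

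Named genes were the hosts of the 20 strongest members, the 10 hosts with most members, the 10 strongest at RNA genes, the 2 strongest of each list, those of the 5 longest introns, the members nearest the window edges and the 3 with the largest rank ratio between replicates; others were chosen after their values were seen. The members, gene lists and motifs were chosen with earlier results of these data known. The result of 1 gene list is not reported here.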

Additional observations from a re-analysis of the deposited data

How the results depend on the processing

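Values were recomputed with other promoter windows, exon rules, subsets, match distances and RNA gene distances, and 1 value changed direction: the gap in share between members and tiles for TGANTCA was 1.71 percentage points in 200 bp windows and -0.0418 in 100 bp windows. No paired analysis was possible because there is 1 group. The spread used as a yardstick is that of only 2 replicate lists, so small shifts exceed it. With summits above the median signal alone there were 323 members in 246 hosts, 99.7% matched in both replicates, 36.5% in first introns, a median distance of 1634 bp, 52.3% in introns with an RNA gene, 28.8% at RNA gene starts and 45% GC. With windows of 500 bp upstream to 300 bp downstream, 37.3% were in first introns, the distance was 1396 bp and 22.1% were at RNA gene starts; with 2000 bp upstream to 500 bp downstream these were 34.7%, 2120 bp and, for introns holding an RNA gene, 48.6%, with a median intron of 3402 bp. With summits in no exon of any gene 36.2% were in first introns. With exons of the longest coding transcript alone the first intron share was 35.8%, the distance 1672.5 bp and 23.1% were at RNA gene starts; with the strongest summit per interval these were 35.99%, 1672.5 bp and 22.97%. With the lowest intron number over transcripts 45.2% were in first introns. Matches in both replicates were 74.2% within 100 bp, 79.4% within 500 bp and 98.1% among all candidates. Without piRNA genes 45.01% were in introns with an RNA gene and 22.02% at starts, and starts within 100 and 500 bp took in 19.8% and 29.2%.

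Each replicate list was also taken in place of the pooled list. Without replicate 1 the median signal was 53.9, 76.9% were matched in both, 35.1% lay in first introns, the median intron was 3170.5 bp, the distance 1681.5 bp, 48.6% were in introns with an RNA gene, 23.6% at RNA gene starts and the GC median was 43.5%. Without replicate 2 these values were 102, 76.2%, 35.2%, 2945 bp, 1689.5 bp, 47.8%, 23.8% and 42.5%. A region of a replicate's own list always matches itself, so these matched shares only give the part found in the other replicate.

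Of 97 alternative values, 46 stayed within the spread (for motif shares the counting interval, for counts 1.5 times) and 50 moved beyond it. The gap in motif share moved with the window width in 9 of these and kept its sign in them. Restricting windows to the middle range of GC content, an alternative chosen after seeing the data, gave gaps of 35.2 percentage points for GAGAGA, 11.95 for CACGTG, 12.9 for TGATAA and 2.58 for AGGTCA. Summits of one list are not replicates, both replicates entered the list, and depth and control reads were not analysed here. In intervals with more than 1 summit a replicate candidate can match several members.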
